A study of Mus musculus with 12 samples.

Results

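The 10 genes described here encode apolipoproteins, lipid transporters, lipoprotein receptors and 2 lipid enzymes: Apod, Apoe, Clu, Lcat, Lpl, Abca2, Abcg1, Scarb1, Vldlr and Lrp1. They were selected by name among the 53465 genes of the count tables, for a contrast between 3 sorted fractions of spinal cord glia that earlier results of these data had shown. Their differences between fractions are therefore given as a description, with fold changes and standard errors, and no p-value of a member is used as support. The grouping name of lipid export covers only some of them, since Lpl, Scarb1, Vldlr and Lrp1 are known for taking lipid or lipoprotein up or releasing fatty acids from it. All 10 passed the filter on low counts.

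All libraries came from C57BL/6 mice of genotype Aldh1L1-GFP/Olig2-tdTomato at postnatal day 7. GFP is a reporter named for Aldh1l1, a folate enzyme of astrocytes, and tdTomato one named for the oligodendrocyte lineage factor Olig2, which cells of the ventral cord also use. Cells of brachial and thoracic cord, freed with papain, were separated by FACS into the fractions eGFP, eGFP/tdTomato and tdTomato, with 4 libraries each, numbered 1, 2, 3 and 5 and labelled as biological replicates. Sort gates and animals per library are not stated in the labels, and no fraction is a pure cell type by its markers, as the values below show.

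Lipid moves between cells of the nervous system mainly on small, dense particles built around apolipoprotein E, which astrocytes are known to secrete. ABC transporters load cholesterol and phospholipid onto these particles, LCAT esterifies their cholesterol, and receptors of the LDL receptor family and scavenger receptor B1 take lipid from them. Apolipoprotein D is a lipocalin rather than a structural particle protein and is known from oligodendrocytes, astrocytes and fibroblasts, among other cells.

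To show the DNA at the start of genes with opposite levels across the fractions, the 250 bases before the start of Apoe, Apod and Vldlr are printed below, from RefSeq on GRCm38.p6. Apoe was high in both eGFP-bearing fractions, Apod was low only in the eGFP/tdTomato fraction and Vldlr was highest in the tdTomato fraction. Windows were found for 6 of the 10 members (Apod, Apoe, Lcat, Abca2, Vldlr and Lrp1), while Clu, Lpl, Abcg1 and Scarb1 are named only. Sequences run 5′ to 3′ on the gene's strand, and capitals mark letters matching a searched motif.
Apoe, chr7:19699189-19699438, minus strand: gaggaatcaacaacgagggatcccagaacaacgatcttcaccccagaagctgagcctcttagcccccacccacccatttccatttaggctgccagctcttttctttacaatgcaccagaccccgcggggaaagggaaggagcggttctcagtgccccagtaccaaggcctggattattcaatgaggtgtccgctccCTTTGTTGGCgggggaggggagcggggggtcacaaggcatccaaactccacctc
Apod, chr16:31314809-31315058, minus strand: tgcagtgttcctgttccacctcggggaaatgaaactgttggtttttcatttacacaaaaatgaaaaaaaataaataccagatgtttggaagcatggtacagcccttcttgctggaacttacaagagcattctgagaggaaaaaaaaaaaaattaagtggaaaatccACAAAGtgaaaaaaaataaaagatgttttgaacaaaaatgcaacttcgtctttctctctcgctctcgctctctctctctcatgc
Vldlr, chr19:27216234-27216483, plus strand: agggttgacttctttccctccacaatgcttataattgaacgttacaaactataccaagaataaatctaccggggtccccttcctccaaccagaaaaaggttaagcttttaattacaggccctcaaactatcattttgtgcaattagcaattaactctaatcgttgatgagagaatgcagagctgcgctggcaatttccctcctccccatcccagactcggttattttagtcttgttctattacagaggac

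The motifs below were searched for on both strands, and for each the share of all 32851 windows of this length that hold it was counted. A GC box was searched as GGGCGG and was held by 32.7% of all windows. A TATA box was searched as TATAAA and was held by 12.4% of them. A nuclear receptor half-site was searched as AGGTCA and was held by 14% of the windows. An E-box of the kind that OLIG factors bind was searched as CAGCTG and was held by 13% of the windows. A SOX element was searched as ACAAAG and was held by 16.5%, and an NFI half-site was searched as TTGGC and was held by 41.5%. The Apoe window held the SOX element on the reverse strand and the NFI half-site, with their first bases 54 and 49 bases before the gene start, and as they share a base they appear as 1 run of capitals. The Apod window held the SOX element 84 bases before the start, and the Vldlr window held none of these motifs. GC content was 57.2% for Apoe, 36.4% for Apod and 41.6% for Vldlr, against a median of 52.4% over all windows.

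Each library had 12564767 to 36505583 reads counted in genes. The reporter genes followed the labels: mean Aldh1l1 was 406 CPM (counts scaled to library size) in the eGFP, 722 in the eGFP/tdTomato and 3.69 in the tdTomato fraction, and mean Olig2 was 5.76, 74.4 and 258 CPM. The library eGFP replicate 1 differed from the rest: 57.1% of its reads were assigned to no counted gene feature (no-feature reads), against 21.2 to 42.5% elsewhere. Its gene count total was also the smallest. Its scaling factor of 1.44 (0.776 to 1.15 in the others) lowered its CPM. It was the lowest eGFP library for 7 members, and for the same 7 without scaling. Summed over 8 genes each, astrocyte markers reached 32070 to 46272 CPM in the eGFP, 40841 to 47925 in the eGFP/tdTomato and 213 to 291 in the tdTomato libraries, and myelin markers 385 to 1267, 1515 to 3156 and 109411 to 159842 CPM. In bulk RNA of this kind, fewer cells of a type and less RNA per cell cannot be told apart.

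**Figure D1:**
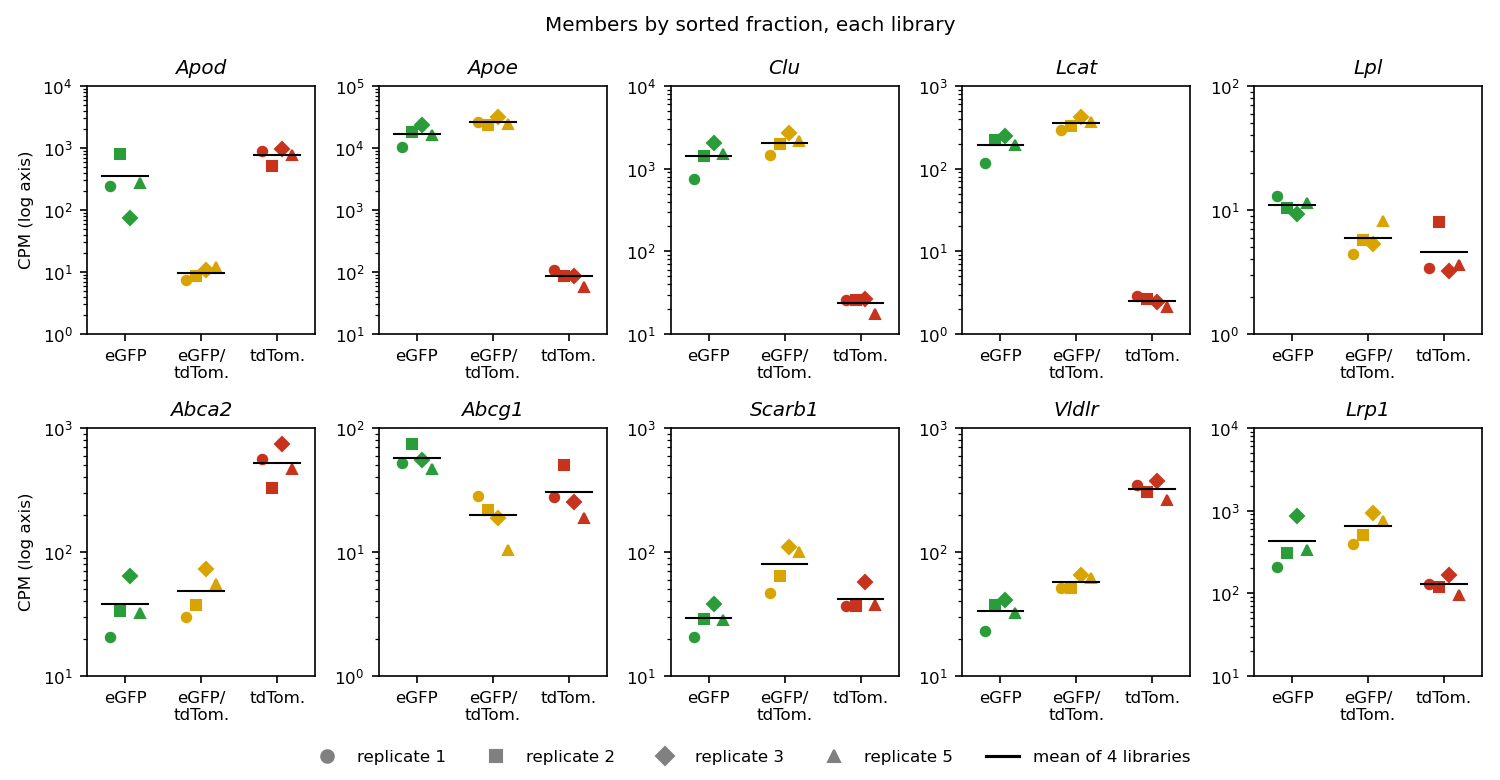
Level of each member in every library (y, TMM-scaled CPM on a log axis whose range differs between panels) by sorted fraction (x), with replicate numbers as symbols and the mean of 4 libraries as a line. Apod is lowest in the eGFP/tdTomato libraries (7.5 to 11.9 CPM), while Apoe, Clu and Lcat are lowest in the tdTomato libraries.

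Among the secreted carriers, Apoe was the most abundant member wherever the astrocyte reporter was on. Apoe (ENSMUSG00000002985, chr7:19696109-19699188, minus strand, GRCm38) encodes the main apolipoprotein of the brain. Its level was 10387, 18183, 23445 and 15910 CPM in eGFP libraries 1, 2, 3 and 5. It was 26414, 23332, 31368 and 24738 CPM in the eGFP/tdTomato libraries in the same order, and 109, 86.0, 86.3 and 57.6 CPM in the tdTomato libraries. Every library of both eGFP-bearing fractions lay far above every tdTomato library, whereas the eGFP and eGFP/tdTomato ranges met, because eGFP library 3 lay just above the lowest eGFP/tdTomato library. Apoe was 313-fold higher in eGFP/tdTomato than in tdTomato libraries (log2 fold change 8.29 ± 0.35 SE) and 201-fold higher in eGFP than in tdTomato libraries (7.65 ± 0.34). The eGFP/tdTomato fraction stood 1.56-fold above the eGFP fraction (0.64 ± 0.25), a difference that was not called. This single gene took 2.43 to 2.75% of all gene counts in the eGFP/tdTomato libraries and 1.48 to 2.23% in the eGFP libraries, against 0.00613 to 0.00952% in the tdTomato libraries. Per kilobase of exons, Apoe ranked 2 among the tested protein-coding genes in both eGFP-bearing fractions and 1250 in the tdTomato fraction. The mean left in the tdTomato fraction was 0.32% of that in the eGFP/tdTomato fraction, and the astrocyte marker sum there was 0.596% of its own; the part of residual astrocyte RNA in this low level was not tested.

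Clu (ENSMUSG00000022037, chr14:65968483-65981547, plus strand) encodes clusterin, a secreted chaperone also called apolipoprotein J, and its levels had the same order as those of Apoe. It read 746, 1432, 2031 and 1488 CPM in the eGFP libraries, 1457, 1977, 2677 and 2150 CPM in the eGFP/tdTomato libraries, and 25.5, 25.8, 26.5 and 17.6 CPM in the tdTomato libraries. The first 2 fractions overlapped and the tdTomato libraries were all below them, with library 5 set apart on the low side. The fold was 86.6 for eGFP/tdTomato over tdTomato (6.44 ± 0.34 SE), 59.7 for eGFP over tdTomato (5.90 ± 0.34) and 1.45, not called, for eGFP/tdTomato over eGFP (0.54 ± 0.27).

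Apod differed from both, with its lowest level in the eGFP/tdTomato fraction. Apod (ENSMUSG00000022548, chr16:31296192-31314808, minus strand) read 242, 806, 75.4 and 277 CPM in the eGFP libraries, a mean of 350 ± 317 (SD, n = 4). It read 7.5, 8.57, 10.6 and 11.9 CPM in the eGFP/tdTomato libraries and 903, 511, 956 and 758 CPM in the tdTomato libraries. No eGFP/tdTomato library overlapped either other fraction, and this was the only member below both single-reporter fractions in all 4 libraries of each. The eGFP libraries spread over a wide range, and the highest of them, library 2, lay inside the tdTomato range. Apod was 81.0-fold lower in eGFP/tdTomato than in tdTomato libraries (log2 fold change -6.34 ± 0.60 SE) and 36.3-fold lower than in the eGFP fraction (-5.18 ± 0.57). Without eGFP replicate 2 the latter fold was 20.3. The eGFP fraction was 2.23-fold below the tdTomato fraction (-1.16 ± 0.48), which was not called. That difference was called with the replicate number as a block (adjusted p = 0.0311 in edgeR's quasi-likelihood test) and, at 4-fold, without eGFP replicate 2.

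The spread of Apod among the eGFP libraries had the same order as that of 4 of the 8 mural and fibroblast markers, Dcn, Lum, Col1a1 and Col3a1. The other 4 had other orders: Pdgfrb was highest in library 3 (36.0 CPM, 11.3 to 20.3 in the others), Col1a2 was second highest there (541 CPM, beside 584 in library 2), and Rgs5 and Acta2 were lowest in library 2. Dcn encodes the fibroblast proteoglycan decorin and was singled out after its values were seen. It read 216, 673, 67.3 and 277 CPM in eGFP libraries 1, 2, 3 and 5, so Apod was 1.12, 1.2, 1.12 and 1 times as high as Dcn in them. In the eGFP/tdTomato libraries Dcn was at 2.71 to 5.98 CPM, and in the tdTomato libraries, where Apod was highest, at 0.558 to 2.69 CPM. The summed level of all 8 mural and fibroblast markers was 787 to 2094 CPM in the eGFP, 357 to 569 in the eGFP/tdTomato and 8.48 to 18.2 CPM in the tdTomato libraries. Of these 8 genes, 4 were called lower in eGFP/tdTomato than in eGFP libraries, and Lum was at 0 in 1 tdTomato library. In eGFP libraries 1, 2, 3 and 5 the myelin marker sum was 385, 535, 1267 and 924 CPM, so the library with the most myelin RNA had the least Apod. The part of fibroblasts in the Apod level of the eGFP fraction was not tested.

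**Figure D2:**
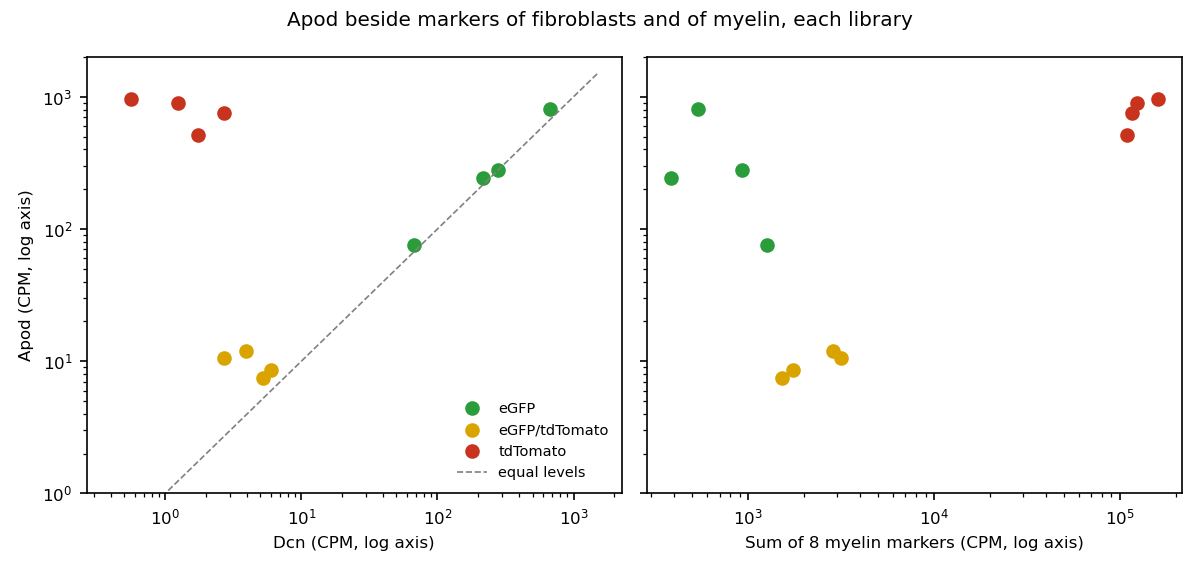
Apod level (y, CPM, log axis) in each of the 12 libraries against Dcn (left x, CPM, log axis) and against the sum of 8 myelin markers (right x, CPM, log axis), coloured by fraction. The 4 eGFP libraries lie close to the dashed line of equal Apod and Dcn levels (ratio 1 to 1.2), and the tdTomato libraries lie far above it (281 to 1714).

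The enzymes that act on lipoproteins behaved unlike each other. Lcat (ENSMUSG00000035237, chr8:105939551-105943382, minus strand) encodes the secreted acyltransferase that esterifies cholesterol on particles. It read 117, 221, 251 and 194 CPM in the eGFP libraries, 296, 328, 422 and 363 CPM in the eGFP/tdTomato libraries and 2.85, 2.68, 2.45 and 2.14 CPM in the tdTomato libraries. The 3 fractions did not overlap. Lcat was 139-fold higher in eGFP/tdTomato than in tdTomato libraries (7.12 ± 0.28 SE), 77.3-fold higher in eGFP than in tdTomato libraries (6.27 ± 0.27) and 1.80-fold higher in eGFP/tdTomato than in eGFP libraries (0.85 ± 0.22). The last difference was just outside the call, and 9 of 26 alternative settings called it.

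Lpl (ENSMUSG00000015568, chr8:68880491-68907448, plus strand), the lipase that frees fatty acids from triglyceride-rich particles, was low in every library. Its levels were 12.9, 10.4, 9.33 and 11.3 CPM in the eGFP, 4.4, 5.78, 5.35 and 8.22 CPM in the eGFP/tdTomato and 3.43, 7.97, 3.2 and 3.62 CPM in the tdTomato libraries. All eGFP libraries were above all libraries of the other fractions, which overlapped each other. The eGFP fraction was 2.40-fold above the tdTomato fraction (1.27 ± 0.32 SE, called) and the eGFP/tdTomato fraction 1.85-fold below the eGFP fraction (-0.89 ± 0.31, not called). The eGFP/tdTomato and tdTomato means, 5.94 and 4.55 CPM, differed by 1.3-fold (0.38 ± 0.31, not called), and without tdTomato replicate 2 this difference was called at 1.73-fold. The summed microglia and macrophage markers (14 genes), of cells that also express Lpl in some states, were 106 to 1212 CPM in the eGFP, 36.4 to 48.5 in the eGFP/tdTomato and 30.2 to 56.8 CPM in the tdTomato libraries. They were highest in eGFP library 5, which was second among the eGFP libraries for Lpl, and their part in the Lpl level was not tested.

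Of the transporters, Abca2 was highest in the tdTomato fraction and Abcg1 in the eGFP fraction. Abca2 (ENSMUSG00000026944, chr2:25428703-25448540, plus strand) encodes a transporter of endosomes and lysosomes known from oligodendrocytes. It read 20.7, 33.7, 64.6 and 32.3 CPM in the eGFP libraries, 29.7, 37.3, 72.6 and 55.4 CPM in the eGFP/tdTomato libraries and 559, 331, 742 and 469 CPM in the tdTomato libraries. The tdTomato libraries were all above the rest, and the eGFP-bearing fractions overlapped. Abca2 was 10.8-fold lower in eGFP/tdTomato than in tdTomato libraries (-3.43 ± 0.38 SE), 13.9-fold lower in eGFP than in tdTomato libraries (-3.79 ± 0.39) and, without a call, 1.29-fold higher in eGFP/tdTomato than in eGFP libraries (0.36 ± 0.35). With the share of no-feature reads as a covariate, the eGFP to tdTomato fold was 9.19. The eGFP and eGFP/tdTomato means of Abca2 were 7.20 and 9.28% of the tdTomato mean. The myelin marker sums there were 0.612 and 1.82% of their tdTomato value, and the oligodendrocyte progenitor marker sums 6.6 and 24.9%. The part of residual oligodendrocyte RNA in these Abca2 levels was not tested.

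Abcg1 (ENSMUSG00000024030, chr17:31057675-31117988, plus strand) encodes a cholesterol exporter that supplies particles. It read 52.1, 74.8, 55.5 and 46.7 CPM in the eGFP libraries, 28.3, 21.9, 18.7 and 10.3 CPM in the eGFP/tdTomato libraries and 27.9, 50.6, 25.3 and 18.9 CPM in the tdTomato libraries. Every eGFP/tdTomato library was below every eGFP library, and the tdTomato libraries overlapped both. Abcg1 was 2.90-fold lower in eGFP/tdTomato than in eGFP libraries (-1.53 ± 0.32 SE, called), and this call was lost in 5 of 26 alternatives, among them those without eGFP replicate 2 (2.58-fold) and without eGFP/tdTomato replicate 3 (2.93-fold) or 5 (2.48-fold). The eGFP fraction was 1.87-fold above the tdTomato fraction (0.90 ± 0.32), a call lost in 16 of the 26. The eGFP/tdTomato fraction was 1.55-fold below the tdTomato fraction (-0.63 ± 0.32), which was called only with the replicate number as a block (adjusted p = 0.0373 in edgeR's quasi-likelihood test). Microglia and macrophages also express Abcg1, and 11 of their 14 markers were called lower in eGFP/tdTomato than in eGFP libraries. Within the eGFP fraction Abcg1 was lowest in library 5, where the marker sum was highest at 1212 CPM, and the part of these cells in the difference was not tested.

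Of the receptors, Scarb1 and Lrp1 had their highest mean in the eGFP/tdTomato fraction, and Vldlr had its highest in the tdTomato fraction. Scarb1 (ENSMUSG00000037936, chr5:125277087-125341094, minus strand) encodes the scavenger receptor that takes up cholesterol ester from particles. It read 20.7, 29.0, 38.4 and 28.3 CPM in the eGFP libraries, 46.4, 63.5, 109 and 100 CPM in the eGFP/tdTomato libraries and 36.6, 36.8, 57.6 and 37.5 CPM in the tdTomato libraries. The eGFP/tdTomato libraries were all above the eGFP libraries. They overlapped the tdTomato libraries, where 1 library of each crossed, but within each number the eGFP/tdTomato library was 1.27 to 2.67 times its tdTomato counterpart. Scarb1 was 2.74-fold higher in eGFP/tdTomato than in eGFP libraries (1.45 ± 0.28 SE, called) and 1.89-fold higher than in the tdTomato fraction (0.92 ± 0.27, called). The first call was lost in 2 of 26 alternatives, without the 3 libraries numbered 2 (2.93-fold) and without those numbered 5 (2.48-fold). The second call was lost in 8 of 26 alternatives, where leaving out eGFP/tdTomato replicate 3 gave a fold of 1.37 and leaving out replicate 5 one of 1.73; leaving out eGFP replicate 5 gave 1.61, and tdTomato replicate 1 or 2 gave 1.82. The eGFP fraction was 1.45-fold below the tdTomato fraction (-0.53 ± 0.27, not called), and the replicate block called it (adjusted p = 0.0232 in edgeR's quasi-likelihood test).

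Vldlr (ENSMUSG00000024924, chr19:27216484-27254231, plus strand) encodes a receptor for apolipoprotein E particles and for reelin. It read 23.1, 37.2, 40.8 and 32.0 CPM in the eGFP libraries, 50.9, 51.6, 65.7 and 61.5 CPM in the eGFP/tdTomato libraries and 350, 306, 376 and 265 CPM in the tdTomato libraries. The 3 fractions did not overlap, with the eGFP/tdTomato libraries in between and nearer to the eGFP libraries. Vldlr was 5.64-fold lower in eGFP/tdTomato than in tdTomato libraries (-2.50 ± 0.20 SE) and 9.74-fold lower in eGFP than in tdTomato libraries (-3.28 ± 0.21). It was 1.72-fold higher in eGFP/tdTomato than in eGFP libraries (0.79 ± 0.19), a call just inside the threshold that was lost in 16 of 26 alternatives with folds of 1.51 to 1.85 in those. The eGFP/tdTomato mean was 17.7% of the tdTomato mean, beside 24.9% for the summed oligodendrocyte progenitor markers (6 genes) and 1.82% for the myelin markers. Most of the progenitor sum in the eGFP/tdTomato fraction (796 CPM) was Olig1, at 661 CPM against 1039 in the tdTomato fraction. Olig2 was at 74.4 against 258 CPM and Cspg4 at 12.7 against 61.8. Pdgfra, Sox10 and Gpr17 were at 7.8, 13.9 and 26.7 CPM, against 208, 537 and 1098. What these cells contribute to Vldlr there was not tested.

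Lrp1 (ENSMUSG00000040249, chr10:127538161-127621148, minus strand) encodes a large receptor that clears apolipoprotein E particles and many other ligands. It read 206, 304, 871 and 332 CPM in the eGFP libraries, 392, 507, 936 and 745 CPM in the eGFP/tdTomato libraries and 130, 119, 167 and 94.9 CPM in the tdTomato libraries. Both eGFP-bearing fractions were above the tdTomato libraries and overlapped each other, since eGFP library 3 was far above the other eGFP libraries. Lrp1 was 5.05-fold higher in eGFP/tdTomato than in tdTomato libraries (2.34 ± 0.40 SE) and 3.35-fold higher in eGFP than in tdTomato libraries (1.75 ± 0.39). The latter was 2.17-fold without eGFP replicate 3 and 5.31-fold with the share of no-feature reads as a covariate. The eGFP/tdTomato fraction was 1.51-fold above the eGFP fraction (0.59 ± 0.38, not called), and without eGFP replicate 3 the difference was 2.31-fold and called.

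**Figure D3:**
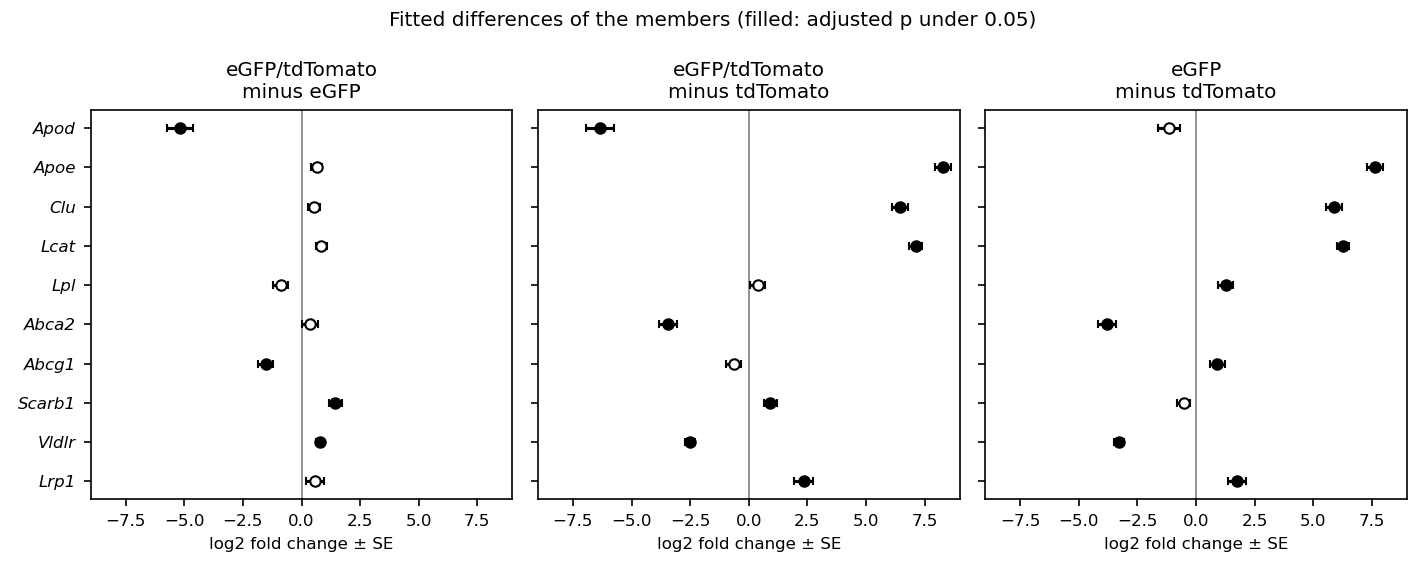
Fitted log2 fold change of each member with its standard error (x) for the 3 comparisons, the first fraction minus the second; filled points had an adjusted p under 0.05. Apod lies left of 0 in all 3 comparisons, and Apoe, Clu and Lcat lie between 5.90 and 8.29 in both comparisons with the tdTomato fraction.

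Counted together, the members were called (adjusted p under 0.05 over all 29361 genes tested) more often against the tdTomato fraction than between the 2 eGFP-bearing fractions. Between eGFP/tdTomato and eGFP, 2 of 10 were called higher (Scarb1 and Vldlr), where 0.814% of all tested genes were, and 2 lower (Abcg1 and Apod), where 1.67% were. Between eGFP/tdTomato and tdTomato, 5 of 10 were called higher (Apoe, Clu, Lcat, Lrp1 and Scarb1) beside 16.8% of all genes, and 3 lower (Abca2, Apod and Vldlr) beside 12.4%. Between eGFP and tdTomato, 6 were called higher (Abcg1, Apoe, Clu, Lcat, Lpl and Lrp1) beside 20.4%, and 2 lower (Abca2 and Vldlr) beside 14.9%. Since the members were named with these contrasts known, nothing is read from the counts, and the 3 comparisons share libraries. Among 14947 protein-coding genes with a mean of at least 1 CPM, whose abundance is nearer to that of the members, the shares were 1.55 and 3.06%, 24.8 and 21.1%, and 27.9 and 25.9% in the same order. The median log2 fold change of the members was 0.56, 0.65 and 1.08 in these comparisons, against -0.02, 0.70 and 0.79 over all tested genes. Of all calls between eGFP/tdTomato and tdTomato 57.6% were higher, and with scaling and tests over protein-coding genes only 47.3% were, the median over genes then being 0.07. No call of a member changed direction under the alternative scalings.

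Levels per kilobase of exons put the members in a different order in each fraction. In the eGFP fraction Apoe came first at 7943 CPM per kilobase, then Clu at 414, followed by Lcat at 146 and Apod at 136, whose libraries overlapped, and Lrp1 at 24.2. Abcg1 (7.85), Abca2 (4.53), Scarb1 (3.42) and Vldlr (3.30) overlapped their neighbours, and Lpl was last at 1.05. In the eGFP/tdTomato fraction Apoe (12377), Clu (601), Lcat (262) and Lrp1 (36.4) stood apart from each other, while Apod was at 3.75, between Vldlr at 5.70 and Abcg1 at 2.71. In the tdTomato fraction Apod was first at 303, ahead of Abca2 at 62.9, Apoe at 39.6 and Vldlr at 32.2, of which each overlapped the next. Lcat was at 1.89 and Lpl at 0.435 there.

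**Figure D4:**
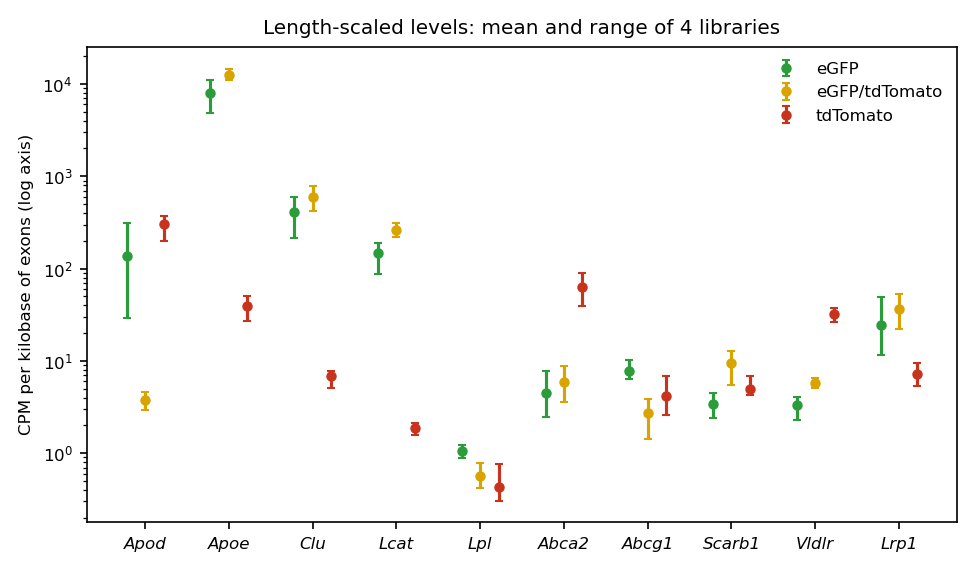
Mean CPM per kilobase of exons (y, log axis) of each member (x) in the 3 fractions, with bars from the lowest to the highest of 4 libraries. Apoe is the top member at 7943 and 12377 in the eGFP and eGFP/tdTomato fractions, and Apod at 303 in the tdTomato fraction.

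Genes with the most similar pattern over the 12 libraries were sought by Pearson correlation of log2 CPM among 9832 protein-coding genes. This correlation does not compare how high the levels are. It is a description in which the fractions, depth and shared sorting all enter. For Apoe the nearest genes were Slc4a4, a sodium bicarbonate cotransporter, and S1pr1, a sphingosine phosphate receptor, both with r = 0.999. Clu was nearest to Id3 (0.999) and Rdh5 (0.998), Lcat to Atp1b2 (0.999) and Cst3 (0.998), and Lrp1 to Rassf2 (0.992) and Dag1 (0.991). Abca2 was nearest to Lgi3 and Clip3 (both 0.997), and Vldlr to Elovl6, a fatty acid elongase (0.999), and Psat1, an enzyme of serine synthesis (0.997). The genes nearest to Apod were Rnf32 (0.970) and Retreg1 (0.961), and the means of Retreg1, at 24.6, 8.66 and 48.6 CPM in the eGFP, eGFP/tdTomato and tdTomato fractions, spanned a narrower range than those of Apod. Scarb1 was nearest to Pde4a (0.949) and Sema4a (0.930), Abcg1 to Ssbp3 (0.948) and Fbxo36 (0.868), and Lpl to genes that include Cep128 (0.869).

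Around the members, 92 other genes of lipid transport were listed in 7 groups, of which 85 passed the filter on low counts. Apoa2, Apoa4, Apoc2, Apoc3, Apof, Apom and Hsd3b7 did not pass. Against the tdTomato fraction the eGFP/tdTomato fraction had 38 of the 85 higher and 16 lower, with a median log2 fold change of 1.18, beside 16.8 and 12.4% of all tested genes and a median of 0.70. Among protein-coding genes of at least 1 CPM the shares were 24.8 and 21.1%, and the counts of the single lists below are to be read beside these. Several are near them. The eGFP fraction had 37 higher and 16 lower against tdTomato, with a median of 1.09, beside 20.4 and 14.9% and a median of 0.79. Between the eGFP/tdTomato and eGFP fractions only Cyp7b1 was called higher and Abca9 and Ptgds lower, beside 0.814 and 1.67% of all genes, and the median was 0.07 beside -0.02. Of the 85 genes, 11 had an unadjusted p under 0.05 in that comparison. Adjusted p-values below are from edgeR's quasi-likelihood test, by the Benjamini-Hochberg method over all tested genes. The lists were chosen with earlier results of these data known, and many genes are named because their called change was the largest. These p-values are therefore a description and are not used as support.

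**Figure D5:**
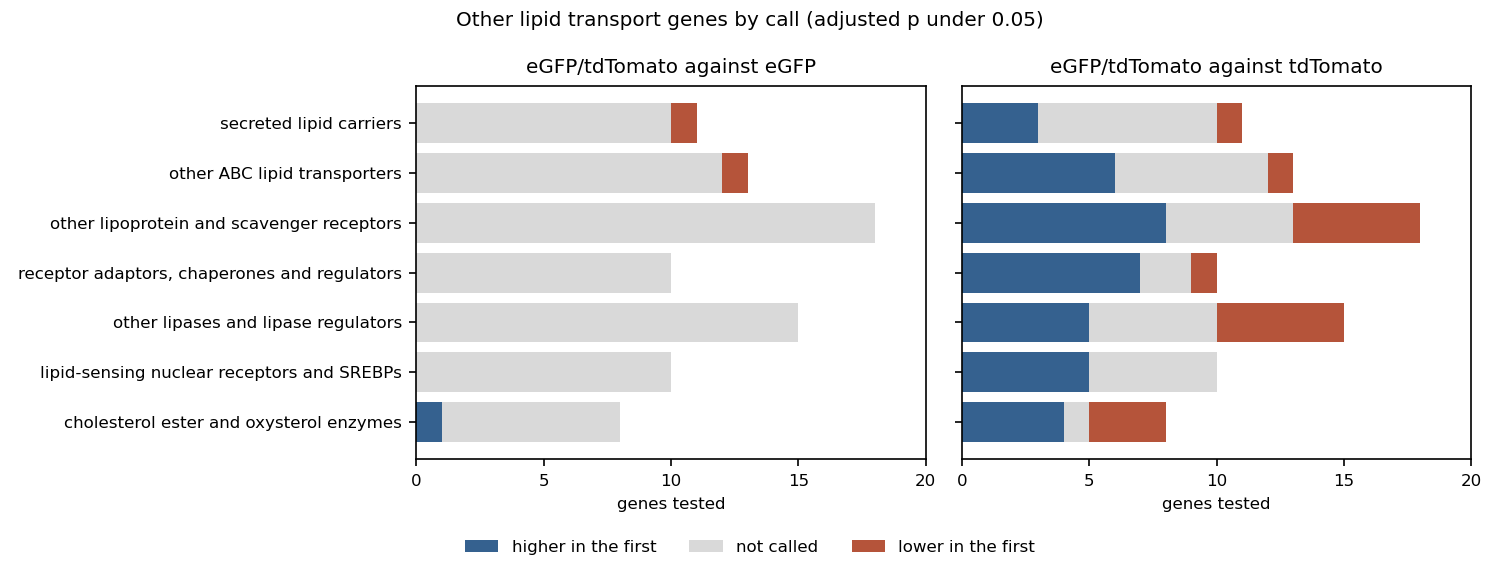
Number of tested genes (x) in each of the 7 lists (y) that were higher, not called or lower in the eGFP/tdTomato fraction against the eGFP fraction (left) and the tdTomato fraction (right). On the left 3 of 85 genes are coloured, where 0.814% of all tested genes were called higher and 1.67% lower. On the right 54 of them are coloured, where 16.8% of all tested genes were called higher and 12.4% lower.

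Among other secreted carriers, 3 of 11 tested were higher and 1 lower in eGFP/tdTomato than in tdTomato libraries. Apoc1, a small apolipoprotein encoded next to Apoe, was at 23.7 to 41.6 CPM in the eGFP/tdTomato and 0.0445 to 0.332 CPM in the tdTomato libraries, 172-fold higher (adjusted p = 6.65e-09). Pltp, the phospholipid transfer protein, was 71.2-fold higher (adjusted p = 8.45e-09), with means of 113, 70.1 and 0.972 CPM in the eGFP, eGFP/tdTomato and tdTomato fractions; 19.3% of its exons overlap Ctsa on the other strand. Psap, the precursor of the saposins, was 2.98-fold higher (adjusted p = 9.12e-05). Npc2, which binds cholesterol in lysosomes, was 1.41-fold lower (adjusted p = 0.0491), a call lost in 12 of 26 alternatives, among them those without eGFP replicate 2 or 3, eGFP/tdTomato replicate 1, 2 or 5, or tdTomato replicate 1, 2 or 3. Between the eGFP-bearing fractions 1 of the 11 was called, Ptgds, a lipocalin like Apod and known from the meninges and oligodendrocytes. Ptgds read 4.46, 50.3, 6.17 and 17.7 CPM in the eGFP libraries and 1.28 to 2.59 CPM in the eGFP/tdTomato libraries, 9.76-fold lower (adjusted p = 0.00721). Its log2 fold change was -3.29, and -2.22 without eGFP replicate 2, and the call was lost in 3 of 26 alternatives. Its highest eGFP library was the one with the most Dcn, but its lowest was library 1, whereas Dcn was lowest in library 3. The part of fibroblasts in the Ptgds level was not tested.

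Among other ABC transporters, 6 of 13 were higher and 1 lower in eGFP/tdTomato than in tdTomato libraries. Abca1, which loads cholesterol onto lipid-poor apolipoproteins, read 239 to 407 CPM in the eGFP/tdTomato and 4.39 to 6.2 CPM in the tdTomato libraries, 54.6-fold higher (adjusted p = 3.74e-09). Its eGFP libraries, at 180 to 495 CPM, overlapped the eGFP/tdTomato libraries, with means of 303 and 297 CPM. Abca4 was 5.44-fold higher (adjusted p = 0.00786), Abca8b 3.32-fold (adjusted p = 0.000851) and Abcg2 1.85-fold (adjusted p = 0.00105) against tdTomato. The log2 fold change of Abca4 was 2.44, and 3.05 without tdTomato replicate 5. Leaving out eGFP/tdTomato replicate 3 took that of Abca8b from 1.73 to 1.12 and ended the call of Abcg2 (adjusted p = 0.0625). Abca9 was 4.47-fold lower in eGFP/tdTomato than in eGFP libraries (adjusted p = 0.0326), a call lost in 10 of 26 alternatives, among them those without eGFP replicate 2 or 5 or without eGFP/tdTomato replicate 1, 3 or 5. Its eGFP libraries read 21.8, 38.0, 4.52 and 22.6 CPM, lowest in library 3, as for Apod and Dcn. Dcn was singled out after its values were seen, and the part of fibroblasts in the Abca9 level was not tested.

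Among other lipoprotein and scavenger receptors, 8 of 18 were higher and 5 lower in eGFP/tdTomato than in tdTomato libraries. Lrp4 was 10.7-fold higher, at 348 ± 89.8 against 32.6 ± 12 CPM (SD, n = 4; adjusted p = 5.92e-07 from the edgeR fit). Lrp5, a Wnt coreceptor, was 6.16-fold higher (adjusted p = 6.24e-05). Lrp2, or megalin, was 3.91-fold higher (adjusted p = 0.0285), a call lost in 13 of 26 alternatives, among them those without eGFP replicate 1 or 5, eGFP/tdTomato replicate 2 or 5, or tdTomato replicate 1. Its libraries overlapped. Scarb2, a lysosomal relative of Scarb1, went the other way from it, 2.31-fold lower (adjusted p = 0.000613). Against the eGFP fraction the edgeR test called 0 of the 18, with 1 at an unadjusted p under 0.05; DESeq2 called 1 and limma-voom 0.

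Among adaptors, chaperones and regulators of these receptors, 7 of 10 were higher in eGFP/tdTomato than in tdTomato libraries. Reln, the secreted ligand of Vldlr, was at 320 to 613 CPM in the eGFP/tdTomato and 3.37 to 8.34 CPM in the tdTomato libraries, 97.9-fold higher (adjusted p = 6.18e-09), while Vldlr itself was highest in the tdTomato libraries. Gulp1, an adaptor of Lrp1, was 48.6-fold higher (adjusted p = 3.13e-08), and Lrpap1, the chaperone of the receptor family, 2.10-fold higher (adjusted p = 0.00123). Snx17, a sorting nexin of Lrp1, was at 122 and 159 CPM and not called (adjusted p = 0.15), but 9 of 26 alternatives called it lower, among them DESeq2 and the omission of any 1 of 3 libraries (replicate 1 or 5 of eGFP, or replicate 3 of eGFP/tdTomato). Against the eGFP fraction edgeR called 0 of the 10, with 1 at an unadjusted p under 0.05; DESeq2 called 1 and limma-voom 0.

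Among lipases and their regulators, 5 of 15 were higher and 5 lower in eGFP/tdTomato than in tdTomato libraries. Angptl4, a secreted inhibitor of Lpl, was at 80.0 to 121 CPM in the eGFP/tdTomato and 0.0301 to 1.48 CPM in the tdTomato libraries, 120-fold higher (adjusted p = 5.1e-07), beside Lpl at 5.94 and 4.55 CPM. Pcsk6, a convertase, was 7.68-fold lower (adjusted p = 1.54e-05), Lipa, the lysosomal acid lipase, 2.85-fold lower (adjusted p = 5.23e-05), Mgll, the monoglyceride lipase, 2.28-fold lower (adjusted p = 0.00185) and Sel1l, needed for maturation of Lpl, 1.75-fold lower (adjusted p = 0.0046). Against the eGFP fraction edgeR called 0 of the 15, with 3 at an unadjusted p under 0.05, and DESeq2 and limma-voom also called 0.

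Of the lipid-sensing nuclear receptors and SREBPs, 5 of 10 were higher in eGFP/tdTomato than in tdTomato libraries. Rxrg was 20.2-fold higher (adjusted p = 2.75e-08), Ppara 15.9-fold (adjusted p = 6.89e-08), Nr1h3, the oxysterol receptor LXR alpha, 14.8-fold (adjusted p = 2.65e-06) and Srebf1 8.43-fold (adjusted p = 1.13e-05). Nr1h3 is known to drive Abca1, Abcg1 and Apoe. Its own level was low, at 6.69, 6.44 and 0.423 CPM in the eGFP, eGFP/tdTomato and tdTomato fractions. Srebf2 was at 212, 279 and 361 CPM and not called in either comparison of the eGFP/tdTomato fraction. Against the eGFP fraction edgeR called 0 of the 10, with 0 at an unadjusted p under 0.05, and DESeq2 and limma-voom also called 0.

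Of the enzymes of cholesterol esters and oxysterols, 4 of 8 were higher and 3 lower in eGFP/tdTomato than in tdTomato libraries. Cyp7b1, an oxysterol hydroxylase, was the only listed gene called higher in this fraction than in both others: 16.2, 17.0, 26.0 and 24.9 CPM in the eGFP, 55.5, 52.1, 73.2 and 44.8 CPM in the eGFP/tdTomato and 3.34, 3.01, 4.05 and 2.29 CPM in the tdTomato libraries. It was 2.68-fold above the eGFP fraction (adjusted p = 0.00255), a call lost in 1 of 26 alternatives, and 17.8-fold above the tdTomato fraction (adjusted p = 7.9e-09). Soat1, which stores cholesterol as ester inside cells, was 5.04-fold higher than in the tdTomato fraction (adjusted p = 6.82e-06). Nceh1, which hydrolyses cholesterol ester, was 10.2-fold lower (adjusted p = 4.32e-09), and Cyp27a1, which makes an oxysterol, 13.7-fold lower (adjusted p = 7.59e-06).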

How the data were processed

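Total RNA of 12 sorted fractions was sequenced on a BGISEQ-500, per the labels. The authors deposited raw counts per Ensembl gene, 1 table per library, made with STAR and HTSeq on GRCm38, per the submitters' processing notes; versions, strand mode and annotation release are not given in the sources used here. No member shares exon bases with another annotated gene. Lines that name no gene were left out of the tests. No-feature reads were 21.2 to 57.1%, ambiguous reads 1.8 to 4.6% and multiply aligned reads 10.1 to 15.2% of a library. Whether no-feature reads lay inside or outside genes is not known from these counts. Symbols, exon lengths and positions came from GENCODE M21 (53360 of 53465 identifiers matched), and promoter windows from RefSeq on GRCm38.p6. Libraries held at least 12564767 gene counts. The SD measures the spread between libraries, and intervals of counting error are not given.

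A single edgeR 4.0.16 fit (R 4.3.3, filterByExpr, TMM factors, quasi-likelihood test) held the 12 libraries with fraction as its factor and was tested on simulated data. Benjamini-Hochberg adjustment ran over 29361 genes, and a gene was called at an adjusted p under 0.05. CPM are TMM-scaled. Where a fold change leaves out a library, the fit was repeated without it.

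The 10 members and the 7 lists were chosen with earlier results of these data known. Genes named from each list were the 2 with the highest length-scaled mean, and up to 3 called with the largest log2 fold change of at least 1 and at least 5 CPM in the higher fraction, in each comparison of the eGFP/tdTomato fraction; some genes this rule picked are not reported here. Alternatives were other scalings, filters and tools (DESeq2 1.42.0, limma 3.58.1), a replicate block, a covariate, and libraries left out. The labels number the libraries by set. Same-numbered libraries deviated together between eGFP/tdTomato and tdTomato, with correlations over genes of 0.14 to 0.43 (median 0.26). Differently numbered ones were at -0.35 to 0.34 (median -0.12), a range that overlaps. Between eGFP and tdTomato they were 0.12 to 0.34 (median 0.23) for the same number and -0.29 to 0.06 (median -0.05) for different numbers. The blocked value therefore stands beside a result of those comparisons where it changes the call.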

Additional observations from a re-analysis of the deposited data

Results flagged for a closer look

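In groups of 4 libraries, 10 of 129 gene and fraction groups had 1 library far from the other 3 by Dixon's gap ratio; chance flags about 1 in 20. Among the members, Clu was at 17.6 CPM in tdTomato replicate 5 (25.5 to 26.5 in the others), Lpl at 7.97 CPM in tdTomato replicate 2 (3.2 to 3.62) and Scarb1 at 57.6 CPM in tdTomato replicate 3 (36.6 to 37.5).

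Among the other lipid genes, eGFP replicate 1, with 57.1% no-feature reads, was high for Abca4 at 15.0 CPM (3.35 to 4.79 in the others). It was also high for Lrp2 at 20.9 CPM (10.1 to 11.3) and low for Gulp1 at 16.2 CPM (21.7 to 22.6). Libraries numbered 3 were high for Srebf2 at 387 CPM in the eGFP fraction (129 to 171 in the others), for Nr1h3 at 8.47 CPM in the eGFP/tdTomato fraction (5.56 to 5.97) and for Ptgds at 5.76 CPM in the tdTomato fraction (4.05 to 4.06). Reln was at 8.34 CPM in tdTomato replicate 5 (3.37 to 3.57 in the others).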

How the results depend on the processing

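Across 26 alternatives no called member changed direction. The number of members called against the eGFP fraction (4) ranged from 2 to 6 with 1 library left out, was 2 without eGFP replicate 2 or eGFP/tdTomato replicate 3 or 5, and was 1 without the 3 libraries numbered 2 or without those numbered 5; Apod was called in each of these. The number of other lipid genes called in that comparison (3) was 6 with DESeq2 and with the share of no-feature reads as a covariate, and 1 with limma-voom. It was 5 with a filter of 1 CPM in 4 libraries, with protein-coding genes only and with only the 2 fractions in the fit. It ranged from 2 to 5 with 1 library left out, with 5 without eGFP replicate 3, was 1 without the libraries numbered 5, and was 0 in edgeR without those numbered 2 (8 at an unadjusted p under 0.05). Against tdTomato, 7 to 9 members were called with eGFP/tdTomato or eGFP under these alternatives, apart from the block. Calls over all genes between eGFP/tdTomato and eGFP changed as well. In the main fit 239 were higher and 491 lower. With DESeq2 they were 549 and 949, with limma-voom 335 and 610, and with the covariate 480 and 696. The 1 CPM filter gave 334 and 679 of 20506, and protein-coding genes only gave 378 and 710 of 15288. Only the 2 fractions gave 163 and 630. With 1 library left out they were 103 to 475 and 323 to 656. Leaving out those numbered 2 gave 99 and 238, and those numbered 5 gave 60 and 201.

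With the replicate number as a block, 5 members were called between eGFP/tdTomato and eGFP (Lcat added, adjusted p = 0.0148), 9 between eGFP/tdTomato and tdTomato and 10 between eGFP and tdTomato, and 5, 61 and 63 of the other lipid genes. Over all 29361 tested genes, the block called 566 higher and 673 lower, 6181 and 4133, and 7135 and 5039 in the same order. Without the block these were 239 and 491, 4935 and 3628, and 5975 and 4372. For eGFP/tdTomato and eGFP the replicate numbers did not meet the rule for pairing, which asks for every correlation over 0.1. Their correlations were 0.03 to 0.61 (median 0.2), against a median of -0.08 for different numbers. Whether the numbers pair these libraries is not settled. Beside Lcat, the block changed the call of Apod and Scarb1 between eGFP and tdTomato and of Abcg1 between eGFP/tdTomato and tdTomato, and of no other member. Leaving out a library leaves fewer samples, and the cause of each other change was not tested. Among the other lipid genes named for eGFP/tdTomato against tdTomato, leaving out the 3 libraries numbered 3 ended the calls of Abca8b, Abcg2 and Lrpap1, and gave log2 fold changes of 1.84 for Abca4, 4.92 for Gulp1, 3.10 for Nr1h3, 5.53 for Pltp, 5.99 for Reln and 6.28 for Angptl4, these 6 still called. Leaving out those numbered 2 ended the calls of Abca4, Abca9, Lrp2, Npc2 and Sel1l. Genes of a few counts, such as Apoc1 at 1 to 9 counts in the tdTomato libraries, carry a large counting error there.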

Other observations

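Libraries numbered 3 were the highest in all 3 fractions for 5 of the 10 members (Clu, Abca2, Scarb1, Vldlr and Lrp1), which include genes that were highest in different fractions. Among all tested genes 11.1% did so for number 3, and 1.22 to 1.71% for each other number. Among tested protein-coding genes 16.3% did. These 3 libraries also had the lowest share of no-feature reads in their fraction, at 29.1% in eGFP, 25.6% in eGFP/tdTomato and 21.2% in tdTomato. The part of this share in the pattern was not tested.

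Within numbers, the eGFP/tdTomato library was above the eGFP library in 4 of 4 for Apoe (1.28 to 2.54 times), Clu (1.32 to 1.95 times), Lcat (1.48 to 2.53 times), Lrp1 (1.07 to 2.24 times) and Abca2 (1.11 to 1.71 times), none of which was called in that comparison. Whether the numbers pair the libraries of these fractions is not settled. The share of all genes with 4 of 4 was not counted, so nothing is read from these ratios. The highest ratio of Apoe came with eGFP replicate 1, whose level without TMM scaling was 14833 CPM, against 18257 to 22329 CPM in the other eGFP libraries.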
